A study of Mus musculus with 16 samples.

Results

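The genes described here are 10 immediate early genes of neurons, which are Egr1, Egr2, Egr3, Egr4, Nr4a1, Nr4a2, Nr4a3, Npas4, Arc and Homer1. They were chosen as activity-driven genes with promoters of the CRE or SRE type, and all probe sets that carry one of their symbols alone in the platform annotation were taken. That gave 24 of the 45037 probe sets that are not array controls, and 20 of the 24 passed the filter on low values, at least 1 for each gene. Gene expression was measured in mouse hippocampus on 16 Affymetrix Mouse Genome 430 2.0 arrays, to ask how a gain and a loss of function of the transcription factor CREB alter transcription. Each array held RNA from a pool of 3 to 4 mice, so a replicate is a pool.

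VP16-CREB joins CREB to the strong activation domain of the viral protein VP16, and A-CREB is a dominant negative partner of CREB whose pairs cannot bind DNA. The late VP16-CREB group had 3 pools of mice 6 weeks old with the genotype tetO-VP16-CREB C57BL/6J, reared on doxycycline (dox), which holds the transgene silent, and taken off it for the last 3 weeks. Its 3 control pools were littermates labelled WT, strain C57BL/6J, on the same dox schedule. The early VP16-CREB group had 2 pools of the same genotype at 3 weeks of age and 1 week off dox, with 2 pools of WT littermates on the same schedule. The A-CREB group had 3 pools at 6 weeks of age with the genotype TetO-A-CREB-95 C57BL6 F1/J, reared with no dox, and 3 pools of WT littermates reared likewise. In a tetO line the transgene is made only in cells that also carry a transactivator, and the labels used here do not name its driver or the cells that made the transgene. The hippocampus was taken whole, so fewer cells of a type and less RNA per cell cannot be told apart in any value below. Age and time off dox differ together between the late and early VP16-CREB cohorts, and the early A-CREB arrays were not analysed here.

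Immediate early genes are transcribed within minutes of synaptic activity, before any new protein is needed. Calcium and kinase signals reach them through CREB bound at cyclic AMP response elements (CRE) and through SRF with its partners bound at serum response elements (SRE). Egr1 to Egr4 encode zinc finger transcription factors, Nr4a1 to Nr4a3 encode orphan nuclear receptors, and Npas4 encodes a transcription factor known for its dependence on calcium influx. Arc and Homer1 act at the synapse, Arc in the removal of AMPA receptors and Homer1 as a scaffold that links metabotropic glutamate receptors, with a short activity-induced form that uncouples them.

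The members were chosen as genes with CRE or SRE promoters, so the motif counts below describe that choice and are no separate finding. RefSeq windows of 300 bases on GRCm38.p6, with 250 bases before and 50 after a start site, were matched by symbol for 7 of the 10 genes, in 12 windows, and not for Egr1, Egr3 and Arc. The short CRE motif TGACG, searched on both strands, lay in at least 1 window of all 7 genes and in 9 of the 12 windows, against 20.8% of the 32851 windows in the table. The full CRE motif TGACGTCA, which contains the short one, lay in none of the 12 windows, against 1.79% of all windows. The CArG box of SRF lay in 4 windows, all of Egr2, against 1.63% of all windows, and overlapping Egr2 windows hold the same sites and are not independent. A match describes letters and not a bound site.

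These 4 windows are printed 5′ to 3′ on the strand of the gene, with motif matches in capitals, either TGACG or its reverse complement CGTCA, and in Egr2 also the CArG box. Egr2 is shown as the member with a CArG box (chr10:67537619-67537918, plus strand), from 1 of its overlapping windows. Nr4a1 (chr15:101266596-101266895, plus strand) has 4 short CRE motifs, Nr4a2 (chr2:57123954-57124253, minus strand) has 4, and Npas4 (chr19:4989922-4990221, minus strand) has 2. The last 3 genes were picked after their values were seen, since the comparisons below turn on them.
Egr2: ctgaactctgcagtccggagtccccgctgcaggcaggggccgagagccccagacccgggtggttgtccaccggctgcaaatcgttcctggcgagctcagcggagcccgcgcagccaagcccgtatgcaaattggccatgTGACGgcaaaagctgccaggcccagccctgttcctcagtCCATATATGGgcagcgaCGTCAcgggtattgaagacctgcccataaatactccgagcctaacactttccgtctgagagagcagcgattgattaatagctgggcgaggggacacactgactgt
Nr4a1: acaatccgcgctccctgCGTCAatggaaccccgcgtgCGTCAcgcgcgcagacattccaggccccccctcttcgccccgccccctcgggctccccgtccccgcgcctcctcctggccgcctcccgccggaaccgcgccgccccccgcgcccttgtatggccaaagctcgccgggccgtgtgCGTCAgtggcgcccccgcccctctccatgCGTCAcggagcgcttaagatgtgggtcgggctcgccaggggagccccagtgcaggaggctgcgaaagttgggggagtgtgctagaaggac
Nr4a2: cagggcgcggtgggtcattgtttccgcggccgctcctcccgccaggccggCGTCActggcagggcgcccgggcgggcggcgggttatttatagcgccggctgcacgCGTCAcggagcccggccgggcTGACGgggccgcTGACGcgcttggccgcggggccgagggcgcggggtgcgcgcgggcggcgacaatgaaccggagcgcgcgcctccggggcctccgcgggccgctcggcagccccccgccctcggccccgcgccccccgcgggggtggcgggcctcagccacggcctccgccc
Npas4: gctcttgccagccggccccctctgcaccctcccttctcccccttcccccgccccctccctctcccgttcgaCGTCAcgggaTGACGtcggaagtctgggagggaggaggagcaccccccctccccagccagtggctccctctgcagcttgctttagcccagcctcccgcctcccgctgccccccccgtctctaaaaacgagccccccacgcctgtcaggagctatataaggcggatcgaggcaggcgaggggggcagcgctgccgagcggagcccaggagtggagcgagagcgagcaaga

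The values are intensities on a linear scale with an arbitrary unit. Differences are log2 of the intensity plus 10, transgenic minus control, from 1 limma fit over all 16 arrays, and a probe set was called at a Benjamini-Hochberg adjusted p under 0.05 over the 27044 probe sets that passed the filter. For each gene the probe set of highest mean stands as its main probe set. Arrays of the late VP16-CREB cohort had median intensities of 119 to 129, and the other 10 arrays 75.0 to 93.2, so levels of different cohorts are listed below without a test between them. Ratios to the control level, here and below, come from these log2 differences and so include the added 10. Of 5 Creb1 probe sets tested, 1 stood at 19.1 times the control level in late VP16-CREB mice and 32.3 times in early ones, and another at 4.82 and 7.01 times. The first was dim in control pools, with a mean of 53.6 in the late and 20.9 in the early cohort, so its ratios depend on the added 10. Whether these 2 probe sets read the transgene was not examined. In the A-CREB cohort, replicate 1 of both groups had low Xist (63.4 in A-CREB, 34.5 in control mice) and high Eif2s3y (298 and 487), which sets them apart in sex from most other pools, and control replicate 2 had both transcripts, with Xist at 3611 and Eif2s3y at 86.5. General neuron markers were far from 0 on every array, with a summed intensity over 6 genes of 55472 to 91290.

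None of the 10 genes was called in VP16-CREB mice at 3 weeks off dox, and their differences ran in both directions. Npas4, Egr3 and Arc had the lowest values, at 0.632 to 0.674 of the control level, and Nr4a2 had the highest, at 1.33 times the control level. The count of member probe sets called was 0 of 20 by limma, where 3.93% of all probe sets were called. At an unadjusted p under 0.05 there were 3 of 20 member probe sets (15%), against 13.5% of all, a share near the background. Pools of both groups did not overlap at 3 of 20 (15%), against 27.6% of all. The median over the 10 genes was -0.23 on the log2 scale and the median over all probe sets was -0.01, with 6 genes below and 4 above 0. Without VP16-CREB replicate 2 the median of the members was -0.15. The lowest adjusted p of a member was 0.179.

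Among the activators of the late cohort, Npas4 had an intensity of 344, 262 and 187 in the 3 VP16-CREB pools, against 537, 442 and 295 in the 3 control pools. The highest VP16-CREB pool lay above the lowest control pool, so the groups overlap. The difference was -0.66 (SE 0.28, 95% interval -1.27 to -0.06; limma adjusted p = 0.305).

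Egr3, a relative of Egr1 known for its need in muscle spindles, had 1569, 1878 and 3370 in VP16-CREB pools, against 3421, 2861 and 3408 in control pools. Replicate 3 of the VP16-CREB group lay within the control range, and the other 2 pools lay below it. The difference was -0.58 (SE 0.24, 95% interval -1.10 to -0.06; limma adjusted p = 0.295). Without VP16-CREB replicate 3 the difference was -0.90 with an adjusted p of 0.0328, and without VP16-CREB replicate 1 it was -0.35 with an adjusted p of 0.665, so the value and the call on Egr3 depend on single pools. The other Egr3 probe set, which is dim, had a difference of -0.31.

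Egr1, the member most used as a marker of neuronal activity, had 5054, 3781 and 5706 in late VP16-CREB pools, against 5766, 5510 and 6371 in control pools. VP16-CREB replicates 1 and 2 lay below every control pool, replicate 2 by far, and replicate 3 lay within their range. The difference was -0.30 (SE 0.17, 95% interval -0.67 to 0.07; limma adjusted p = 0.525), and -0.13 without VP16-CREB replicate 2.

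Egr2, also known as the factor that drives myelination in Schwann cells, was dim, with 183, 96.0 and 142 in late VP16-CREB pools, against 177, 90.9 and 112 in control pools. The 3 pools of each group were spread alike. Its main probe set had a difference of 0.14 (SE 0.41) and its other probe set one of -0.20, so the sign depends on the probe set. Of 4 listed Schwann cell markers only Sox10 and Pmp2 were measured, with a summed intensity of 534 to 824 in late VP16-CREB pools and 523 to 592 in their controls. Pmp2 was near 0 in both, so the sum is nearly all that of Sox10 and does not show a Schwann cell signal.

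Egr4 had 432, 297 and 388 in late VP16-CREB pools, against 356, 336 and 270 in control pools. The ranges overlap, with a difference of 0.20 (SE 0.20, 95% interval -0.23 to 0.63; limma adjusted p = 0.796).

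The nuclear receptor genes did not share a direction. Nr4a2, which encodes the receptor Nurr1, had 3801, 3837 and 4196 in late VP16-CREB pools, against 3120, 2589 and 3231 in control pools. All 3 VP16-CREB pools lay above all 3 control pools. The difference was 0.41 (SE 0.14, 95% interval 0.10 to 0.72; limma adjusted p = 0.179), which does not pass the threshold over all probe sets. All 4 Nr4a2 probe sets that passed the filter had values above 0, between 0.14 and 0.41, and pools did not overlap at 2 of them. The 4 read the same gene and are not independent.

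Nr4a3, which encodes the receptor NOR-1, had 3353, 2978 and 3140 in late VP16-CREB pools, against 2543, 3088 and 2515 in control pools. VP16-CREB replicate 2 lay below control replicate 2, and the other 2 VP16-CREB pools lay above every control. The difference was 0.22 (SE 0.18, 95% interval -0.17 to 0.61; limma adjusted p = 0.728). Nr4a1, which encodes Nur77, had 2379, 1818 and 2029 in VP16-CREB pools, against 2832, 2324 and 2518 in control pools, and the highest VP16-CREB pool lay just above the lowest control. Its difference was -0.30 (SE 0.19, 95% interval -0.72 to 0.11; limma adjusted p = 0.584).

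Of the synaptic effectors, Arc had 1394, 1041 and 1134 in late VP16-CREB pools, against 1980, 1875 and 1460 in control pools. All 3 VP16-CREB pools lay below all 3 control pools. The difference was -0.57 (SE 0.29, 95% interval -1.20 to 0.06; limma adjusted p = 0.442). Homer1 had 3494, 3349 and 3161 in VP16-CREB pools, against 3596, 4143 and 3484 in control pools. VP16-CREB replicate 1 lay just above the lowest control pool, and the difference was -0.16 (SE 0.19, 95% interval -0.58 to 0.25; limma adjusted p = 0.849). The 6 Homer1 probe sets had differences of -0.26 to 0.24, and the annotation used here does not tell which of them read the short activity-induced form. At 1 of them VP16-CREB replicate 3 stood at 1682, where the other 2 VP16-CREB pools were at 497 and 646 and the controls at 652 to 733.

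**Figure D1:**
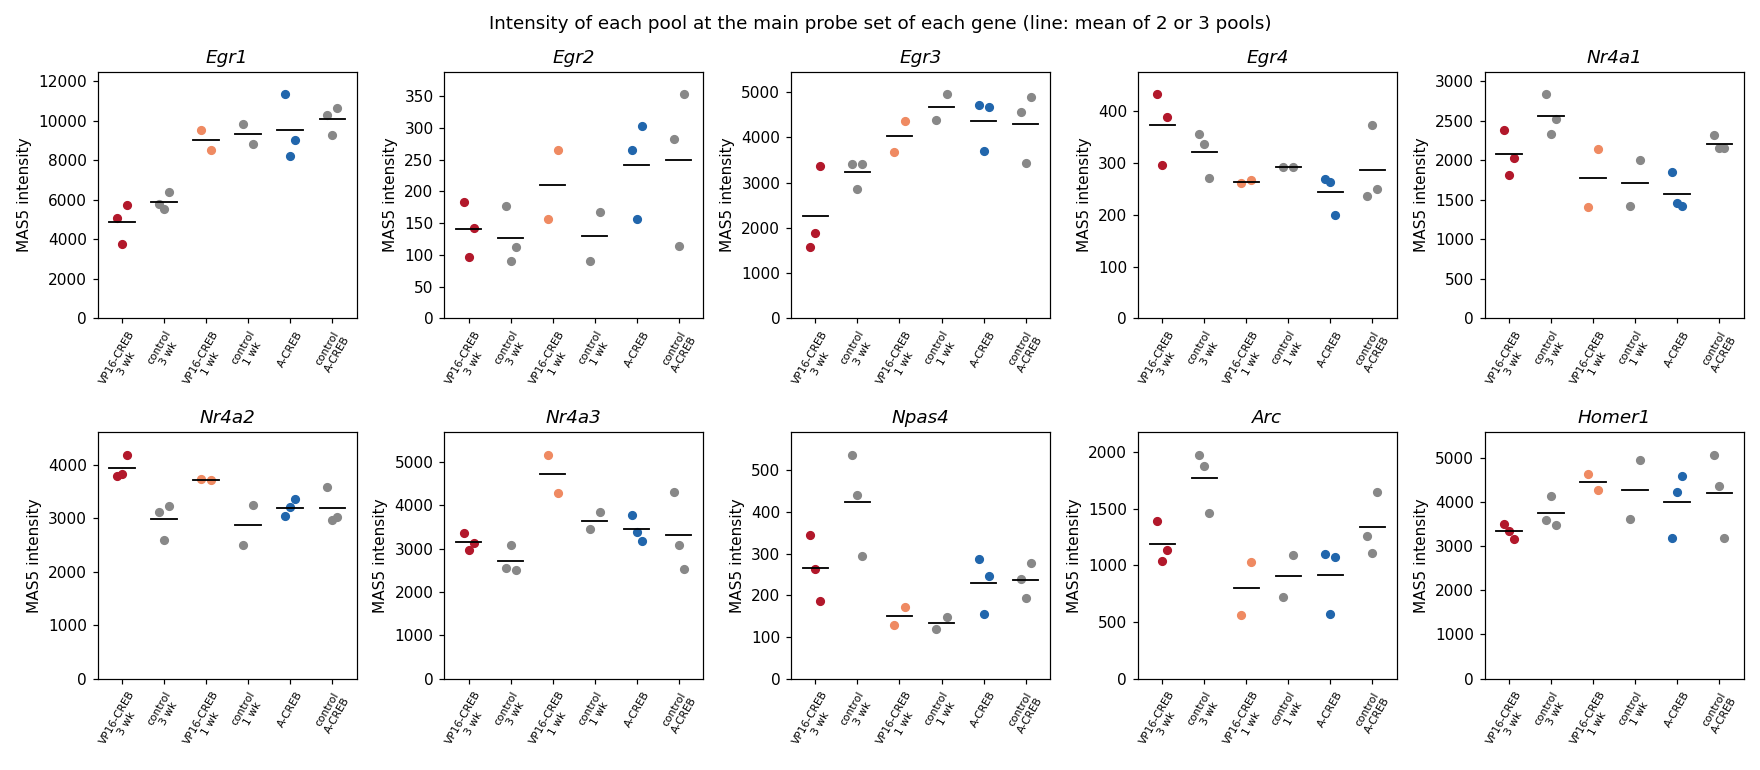
MAS5 intensity (linear axis from 0) of each pool at the main probe set of each gene, in VP16-CREB mice and littermate controls at 3 weeks and at 1 week off dox and in A-CREB mice and their controls; points are pools and lines are group means of 2 or 3 pools. Nr4a2 has all 3 late VP16-CREB pools above the controls (3801 to 4196, against 2589 to 3231) and Arc has them below (1041 to 1394, against 1460 to 1980), while most other groups overlap.

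At 1 week off dox none of the 10 genes was called in VP16-CREB mice either, and most differences were small. Egr2, Nr4a2 and Nr4a3 had the highest values, at 1.60, 1.31 and 1.30 times the control level, and Arc and Egr3 the lowest, at 0.854 and 0.861. No member probe set was called by limma (0 of 20), where 0.237% of all were called. An unadjusted p under 0.05 was reached by 1 member probe set (5%), against 5.27% of all. Pools did not overlap at 7 of 20 member probe sets (35%), against 28.6% of all, and 4 of these 7 belong to Nr4a2. The median over the 10 genes was 0.05, and 0.02 over all probe sets, but without 1 pool the median of the members ran over -0.066 (without control replicate 1) to 0.29 (without control replicate 2). The lowest adjusted p was 0.933, and with 2 pools a group the SE of a member had a median of 0.24 on the log2 scale, against 0.20 at 3 weeks.

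Nr4a2 had 3743 and 3712 in early VP16-CREB pools, against 2495 and 3255 in control pools. Both VP16-CREB pools lay above both controls. The difference was 0.39 (SE 0.18, 95% interval 0.01 to 0.77; limma adjusted p = 0.933). Without control replicate 1 it was 0.19. Its other 3 probe sets had values of 0.28 to 0.29, with no overlap of pools at any of them.

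Nr4a3 had 5172 and 4292 in early VP16-CREB pools, against 3449 and 3835 in control pools, with no overlap. Its difference was 0.37 (SE 0.22, 95% interval -0.11 to 0.85; limma adjusted p = 1). Nr4a1 had 1402 and 2139 in VP16-CREB pools, against 1421 and 2007 in control pools, so each group held a low and a high pool. Its difference was 0.04 (SE 0.23, 95% interval -0.47 to 0.54).

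Egr2 had 156 and 265 in early VP16-CREB pools, against 90.2 and 168 in control pools, and the groups overlap. Its difference of 0.68 had an SE of 0.51 (95% interval -0.41 to 1.76; limma adjusted p = 1). Egr1 had 9506 and 8506 in VP16-CREB pools, against 9808 and 8812 in control pools, a difference of -0.05 (SE 0.21). Egr3 had 3683 and 4368 in VP16-CREB pools, against 4382 and 4953 in control pools. These pools do not overlap, but the nearest, at 4368 and 4382, lie side by side, and the difference was -0.22 (SE 0.30). Egr4 had 260 and 267 in VP16-CREB pools, both below the 2 control pools at 293, a difference of -0.14 (SE 0.24).

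Npas4 had 128 and 172 in early VP16-CREB pools, against 120 and 147 in control pools. The ranges overlap and the difference was 0.15 (SE 0.34, 95% interval -0.59 to 0.89). Arc had 558 and 1035 in VP16-CREB pools, against 726 and 1096 in control pools, a difference of -0.23 (SE 0.36). Homer1 had 4621 and 4265 in VP16-CREB pools, within the 3604 and 4948 of the control pools, a difference of 0.07 (SE 0.24).

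In A-CREB mice, whose transgene encodes the dominant negative partner of CREB, none of the 10 genes was called. Neither was any other probe set that passed the filter. The degree to which CREB was inhibited in these pools was not measured. Nr4a1 and Arc had the lowest values, at 0.710 and 0.664 of the control level, and the other 8 main probe sets lay between -0.21 and 0.09 on the log2 scale. The count called by limma was 0 of 20 member probe sets and 0% of all probe sets. At an unadjusted p under 0.05 there was 1 member probe set (5%), against 4.33% of all. Pools did not overlap at 3 of 20 (15%), against 6.82% of all. The median over the 10 genes was -0.07 and over all probe sets 0.00.

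Nr4a1 had 1844, 1457 and 1418 in A-CREB pools, against 2316, 2148 and 2153 in control pools. All 3 A-CREB pools lay below all 3 controls. The difference was -0.49 (SE 0.19, 95% interval -0.91 to -0.08; limma adjusted p = 1). Arc had 1097, 568 and 1072 in A-CREB pools, against 1261, 1112 and 1647 in control pools. The groups do not overlap, though 2 A-CREB pools lay just below the lowest control, and replicate 2 was far lower. The difference was -0.59 (SE 0.29, 95% interval -1.22 to 0.04; limma adjusted p = 1). Without replicate 2 of the A-CREB group it was -0.28.

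Nr4a2 had 3046, 3205 and 3360 in A-CREB pools, against 3581, 2978 and 3031 in control pools. At this main probe set the groups overlap, and the difference was 0.01 (SE 0.14, 95% interval -0.30 to 0.32). The other Nr4a2 probe sets that passed the filter had differences of -0.25, 0.01 and -0.20. At the last of them all A-CREB pools (815 to 895) lay below all control pools (934 to 1058). Nr4a3 had 3773, 3392 and 3167 in A-CREB pools, against 4307, 3094 and 2529 in control pools, a difference of 0.09 (SE 0.18). The A-CREB pools lay inside the wider control range.

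Egr1 had 11325, 8191 and 8997 in A-CREB pools, against 10268, 9277 and 10647 in control pools. The control pools lay inside the A-CREB range, and the difference was -0.09 (SE 0.17, 95% interval -0.46 to 0.28). Egr3 had 4720, 3709 and 4672 in A-CREB pools, against 4568, 3435 and 4884 in control pools, a difference of 0.03 (SE 0.24). Its dim probe set had 25.8, 78.9 and 51.9 in A-CREB pools, against 69.0, 117 and 66.9 in control pools, a difference of -0.66 (limma adjusted p = 1), so the probe sets of Egr3 disagree here.

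Egr2 had 266, 157 and 303 in A-CREB pools, against 283, 113 and 353 in control pools, and replicate 2 was lowest in both groups. Its difference was 0.05 (SE 0.41). Egr4 had 268, 264 and 199 in A-CREB pools, against 237, 373 and 250 in control pools, a difference of -0.21 (SE 0.20). Npas4 had 286, 155 and 247 in A-CREB pools, against 239, 192 and 278 in control pools, a difference of -0.07 (SE 0.28). Homer1 had 3192, 4211 and 4583 in A-CREB pools, against 5070, 4352 and 3193 in control pools, a difference of -0.06 (SE 0.19). All of these ranges overlap.

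**Figure D2:**
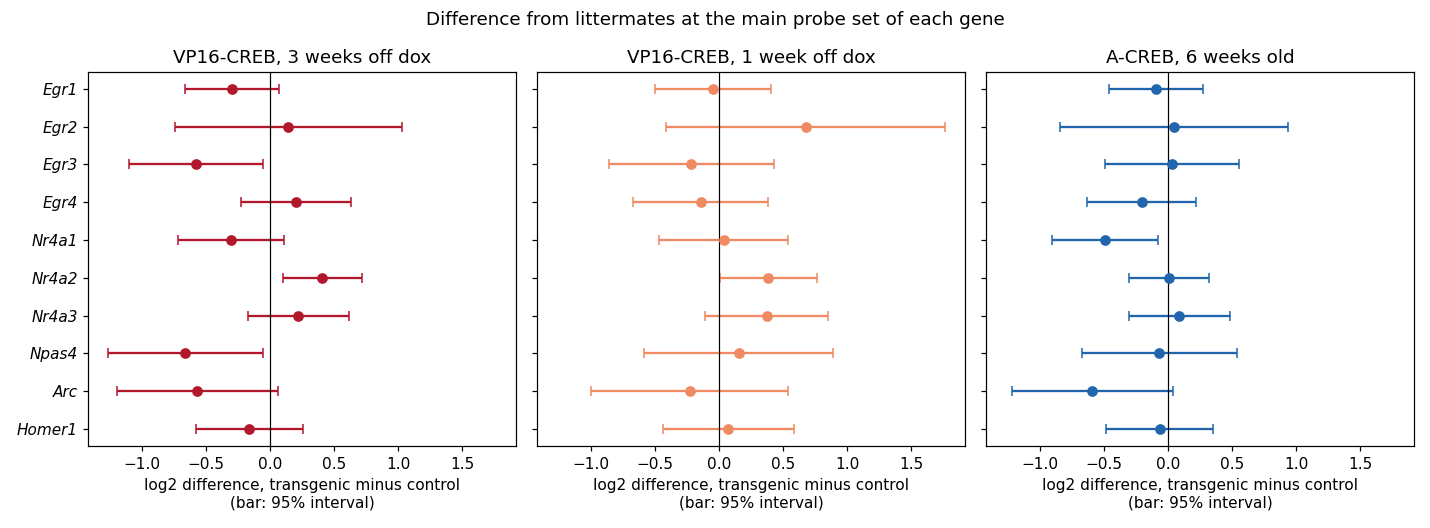
Log2 difference in intensity plus 10, transgenic minus control (x axis, points), with the 95% interval of the limma fit (bars), at the main probe set of the 10 genes, for VP16-CREB at 3 weeks off dox, VP16-CREB at 1 week off dox and A-CREB. The intervals that leave out 0 are those of Egr3 (-0.58), Nr4a2 (0.41) and Npas4 (-0.66) at 3 weeks, Nr4a2 (0.39) at 1 week and Nr4a1 (-0.49) in A-CREB mice, and none of them passed the adjusted threshold.

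**Figure D3:**
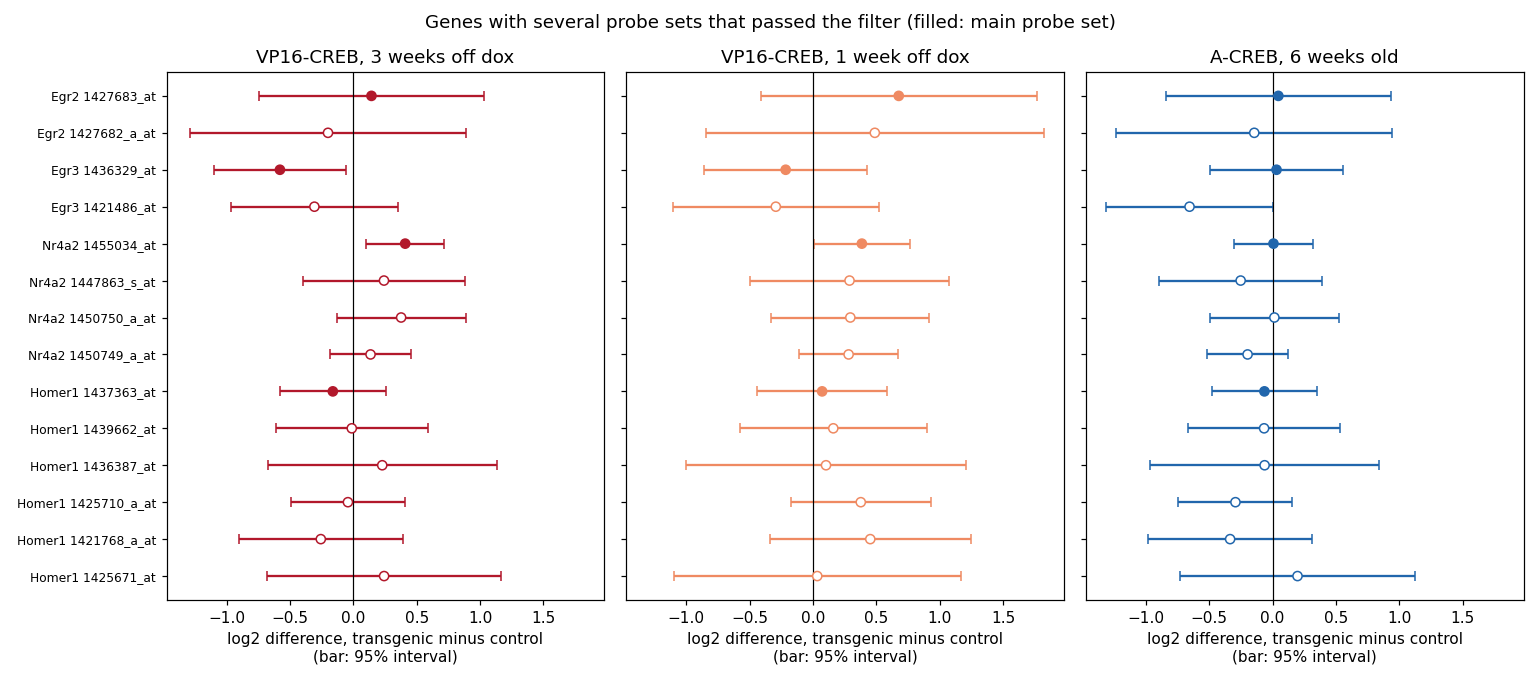
Log2 difference, transgenic minus control (x axis), with 95% intervals for each probe set that passed the filter of the 4 genes with more than 1, filled for the main probe set. The 4 Nr4a2 probe sets lie at 0.14 to 0.41 in late VP16-CREB mice and at 0.28 to 0.39 in early ones. The probe sets of Egr2 and of Homer1 disagree in sign in late VP16-CREB mice, and those of each of the 4 genes do so in A-CREB mice.

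Between the late and early VP16-CREB effects no member differed by the adjusted test. By limma 0 of 20 member probe sets were called, against 0.0037% of all probe sets, and at an unadjusted p under 0.05 there were 0 of 20, against 4.99% of all. The largest difference of effects was that of Npas4 at -0.81 (SE 0.44, 95% interval -1.77 to 0.14; limma adjusted p = 1), with effects of -0.66 at 3 weeks and 0.15 at 1 week. For Nr4a2 the difference of effects was 0.02 (SE 0.23, 95% interval -0.47 to 0.51). Over the 10 genes the 95% intervals reached as low as -1.94 (Egr2) and as high as 1.02 (Egr4).

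Between the late VP16-CREB effect and the A-CREB effect no member differed by the adjusted test either. By limma 0 of 20 member probe sets were called, against 0.887% of all, and at an unadjusted p under 0.05 there were 0 of 20, against 8.69% of all. Nr4a2 had a difference of effects of 0.40 (SE 0.20, 95% interval -0.04 to 0.84; limma adjusted p = 0.634) and Egr3 one of -0.61 (SE 0.34, 95% interval -1.35 to 0.13; limma adjusted p = 0.702). For Arc, with effects of -0.57 in late VP16-CREB mice and -0.59 in A-CREB mice, it was 0.02 (SE 0.41, 95% interval -0.87 to 0.91).

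Across the 6 groups the order of levels followed the cohort for several genes. Egr1 averaged 4847 ± 979 in late VP16-CREB mice and 5882 ± 442 in their controls (SD, n = 3 each), below 9006 ± 707 in early VP16-CREB mice, 9310 ± 704 in their controls (SD, n = 2 each), 9504 ± 1628 in A-CREB mice and 10064 ± 708 in their controls (SD, n = 3 each). Npas4 averaged 265 ± 78.8 in late VP16-CREB mice and 425 ± 122 in their controls (SD, n = 3 each), against 150 ± 31.1 in early VP16-CREB mice and 134 ± 19.4 in their controls (SD, n = 2 each), with 229 ± 67.4 in A-CREB mice and 236 ± 42.9 in their controls (SD, n = 3 each) between them. Of the 50 pairs of neighbouring groups in these orders, 5 for each gene, the pools overlapped in 44. The breaks lay between early and late cohorts for Egr1 and Egr3, below the late controls for Nr4a1, above and below early VP16-CREB mice for Nr4a2, and below early VP16-CREB mice for Nr4a3. Between the late VP16-CREB cohort and the others, cohort, dox schedule and scaling of the arrays differ together and cannot be told apart. Age differs with them only against the early cohort, since late VP16-CREB and A-CREB mice were all 6 weeks old. Between the early VP16-CREB and A-CREB cohorts, cohort, age and dox schedule differ together.

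Within a group, some pools were the highest or lowest for many members. In the late VP16-CREB group replicate 1 was the highest of the group for 7 of the 10 genes, as it was for 38.8% of all probe sets, and replicate 2 was the lowest for 6, against 28.8% of all. Among the early controls replicate 2 was the higher for 9 of 10, against 47.8% of all. In the A-CREB group replicate 1 was the highest for 7, against 35.4% of all, and among its controls replicate 2 was the lowest for 7, against 32.3% of all. These shares were not tested, the members go together in part, and the median deviation of the members in a pool from its group mean was at most 0.18 on the log2 scale in size. The ratio of the 3′ to the 5′ actin control probe sets, a sign of RNA quality, was 2.00 in early control replicate 2, 2.48 in A-CREB replicate 3 and 1.98 in A-CREB control replicate 1, and 1.36 to 1.65 on the other 13 arrays. The labels give no handling or time of day for a pool, and the part of either in these values was not tested.

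**Figure D4:**
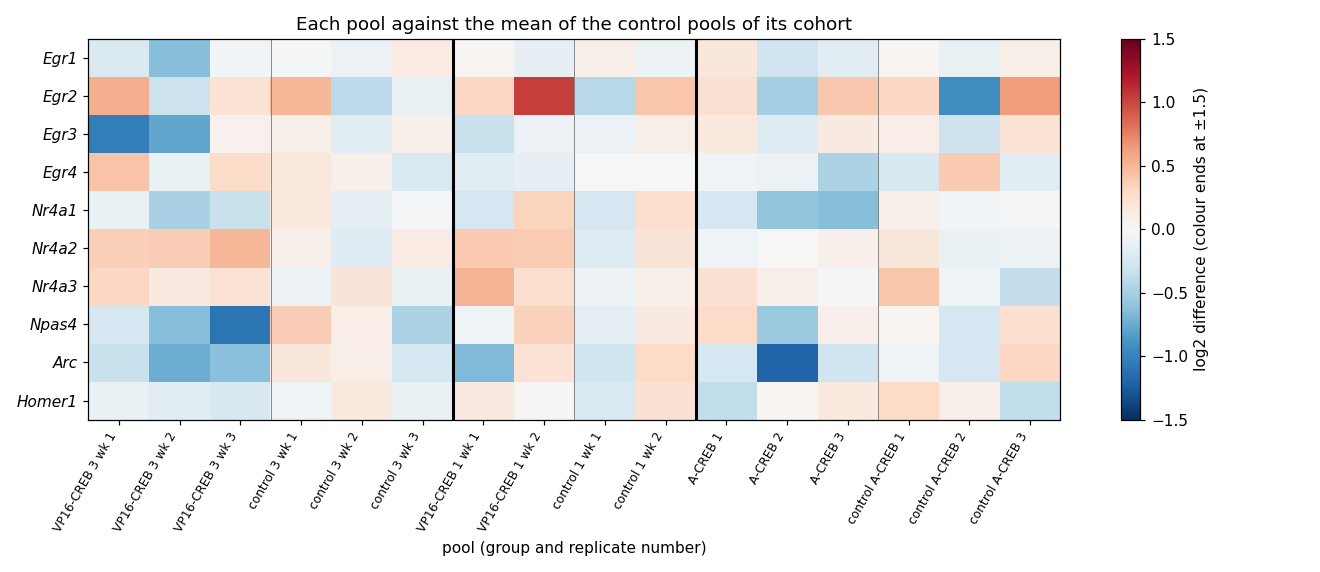
Log2 intensity of each pool (columns) minus the mean of the control pools of its cohort, by gene (rows), in colour with red higher and blue lower and the scale ending at ±1.5. Nr4a2 and Nr4a3 are above 0 in all 5 VP16-CREB pools, and Arc and Nr4a1 are below 0 in all 3 late VP16-CREB and all 3 A-CREB pools. Control pools of 1 group differ among themselves by as much as many transgenic pools.

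With each array set against the mean of its cohort, the closest pairs of members over the 16 arrays were Nr4a1 with Arc (Pearson r = 0.80), Arc with Npas4 (r = 0.77) and Egr1 with Egr3 (r = 0.65). Nr4a2 went with Nr4a3 (r = 0.53) and against Npas4 (r = -0.37). The mean of a cohort covers its transgenic and control pools together. The differences between them given above therefore remain in these correlations, which in part restate them. For the 3 members of highest mean, the probe sets of other genes most like Egr1 were those of Zfp398 (r = 0.81, Spearman rho = 0.80), Ip6k2 (r = 0.81, rho = 0.79) and F5 (r = 0.80, rho = 0.57). Those most like Homer1 were Tmem106b (r = 0.95, rho = 0.93), Unc80 (r = 0.94, rho = 0.96) and Plcb1 (r = 0.93, rho = 0.87), and those most like Egr3 were Paip1 (r = 0.90, rho = 0.90), Ankrd33b (r = 0.90, rho = 0.93) and Chtop (r = 0.87, rho = 0.87). These are descriptions over 16 arrays in 3 cohorts, which share scaling and pool quality, and were picked as the highest of all probe sets.

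Other immediate early genes measured on the same arrays gave different counts. Of a list of 46 such genes, all of which passed the filter, 14 rose and 0 fell by the adjusted test in late VP16-CREB mice, with 21 at an unadjusted p under 0.05 and a list median of 0.40. Fosl1, Gem and Maff passed only through late VP16-CREB pools, so the filter favoured a rise of these genes there. Of all probe sets 3.93% were called, 886 higher and 176 lower, and 13.5% had an unadjusted p under 0.05. Without VP16-CREB replicate 3 or control replicate 2 the list count was 8, and 9 without control replicate 3. Of the 10 members 0 were called and 3 had an unadjusted p under 0.05. The list was drawn up with earlier results known, and the difference between it and the members was not tested. At 1 week 0 of the 46 were called by limma, with 16 at an unadjusted p under 0.05 and a median of 0.18. Of all probe sets 0.237% were called there, and 5.27% had such an unadjusted p. In A-CREB mice 0 were called, with 4 at an unadjusted p under 0.05 and a median of -0.11. There 0% of all probe sets were called, and 4.33% had such an unadjusted p.

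The 4 largest rises in late VP16-CREB mice were those of Atf3, a stress-induced bZIP factor, of Nfil3, a bZIP repressor, of Fosl1, an AP-1 subunit, and of Inhba, the activin A subunit. Atf3 had 468, 342 and 550 in VP16-CREB pools, against 13.6, 10.5 and 46.0 in control pools, a log2 difference of 3.92 (SE 0.45, limma adjusted p = 0.00014). Nfil3 rose by 2.02 (SE 0.29, limma adjusted p = 0.000829), Fosl1 by 1.98 (SE 0.41, limma adjusted p = 0.0132) and Inhba by 1.78 (SE 0.33, limma adjusted p = 0.00686). Fosl1 was dim, with 110, 87.6 and 111 in VP16-CREB pools, against 34.7, 15.3 and 10.6 in control pools. It passed the filter only through the late VP16-CREB group. No pool of these 4 genes overlapped between the late groups. At 1 week none of the 4 was called, and their VP16-CREB pools again lay above their control pools. Atf3 had 387 and 345 there, against 65.4 and 73.0. Pools did not overlap at 28.6% of all probe sets in that comparison. Where none was called, the 2 genes of highest mean were Plk2, a kinase of the spine, and Jund, an AP-1 subunit. Their differences were 0.00 and 0.48 at 1 week and -0.35 and -0.05 in A-CREB mice.

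**Figure D5:**
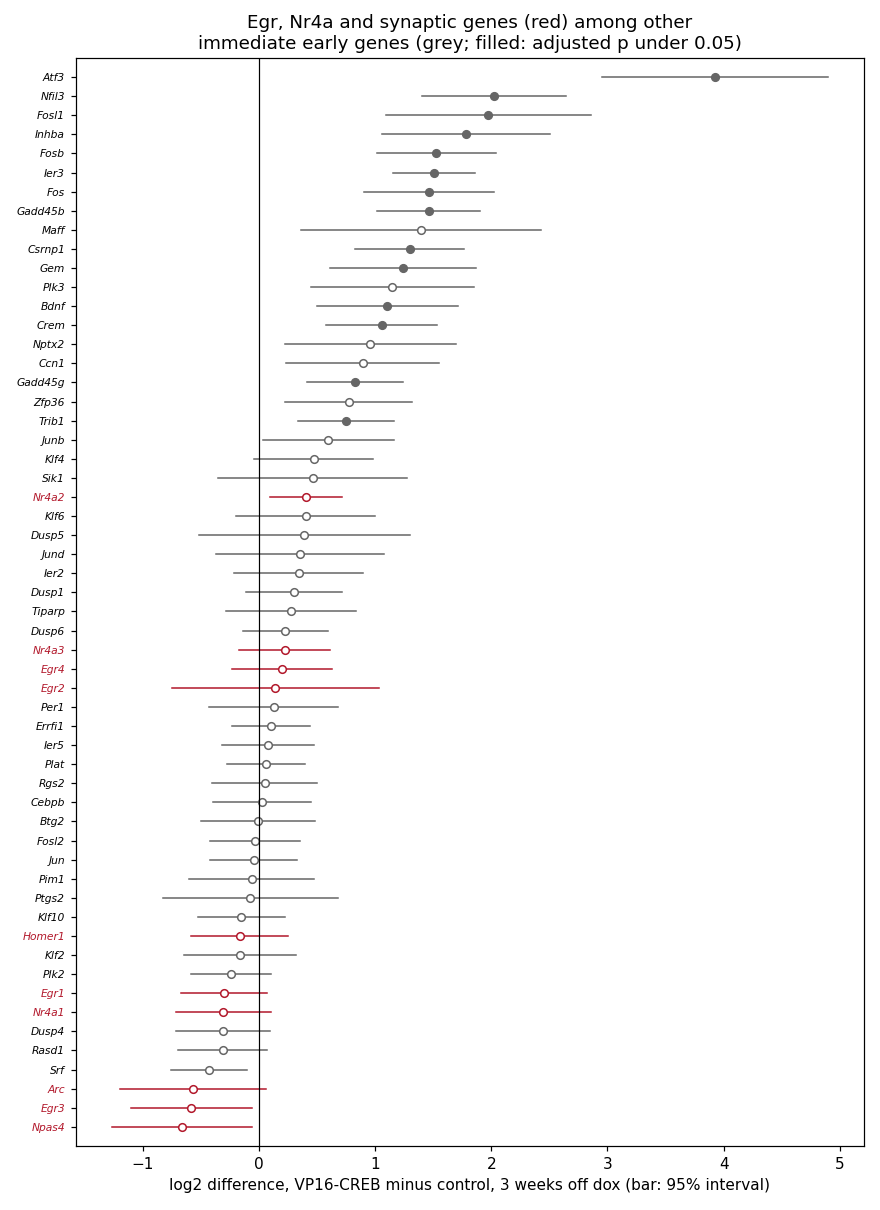
Log2 difference, VP16-CREB minus control at 3 weeks off dox (x axis), with 95% intervals, for the 10 members (red) and the 46 other immediate early genes (grey), in order of size and filled where the adjusted p was under 0.05. The members lie between -0.66 and 0.41, all open, and the 14 filled genes lie between 0.75 (Trib1) and 3.92 (Atf3).

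Of the factors that act upstream of these genes, 20 of 24 listed passed the filter. Each was counted at its main probe set. In late VP16-CREB mice 0 rose and 1 fell by that count. This was Crtc1, the CREB coactivator that enters the nucleus on calcium signals, at -0.70 (SE 0.18, limma adjusted p = 0.0467). Creb1 is on the list, and 2 of its other probe sets, those with the high ratios given above, were called higher in late VP16-CREB mice (limma adjusted p = 6.1e-05 and 0.00201). Both were also called higher in early ones (limma adjusted p = 0.00143 and 0.0178). At 1 week and in A-CREB mice 0 of 20 were called by limma at their main probe sets. There 2 and 1 had an unadjusted p under 0.05, against 7 of 20 in the late cohort, where 13.5% of all probe sets had such a p. The summed intensity of the 20 was 44994 to 52410 in late VP16-CREB pools and 58858 to 73256 in their control pools. In the comparisons with no call the calcineurin subunit Ppp3ca differed by 0.05 at 1 week and by -0.09 in A-CREB mice, and the kinase Camk2a by -0.73 (limma adjusted p = 0.621) and -0.11.

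Of 8 listed partners of the Egr, Nr4a and Npas4 proteins, 7 passed the filter and 0 were called by limma in any of these 3 comparisons, with 0 at an unadjusted p under 0.05. Arnt2, a dimer partner of Npas4, differed by -0.08 in late VP16-CREB mice, -0.08 in early ones and 0.07 in A-CREB mice, and the Egr corepressor Nab1 by -0.06, -0.05 and 0.08. Of 17 listed synaptic partners of Arc and Homer1, 12 passed and 0 were called by limma, with 3 at an unadjusted p under 0.05 in the late cohort and 0 in the others. In the late cohort 13.5% of all probe sets had such a p. The AMPA receptor subunits Gria2 and Gria1 differed by -0.43 and -0.47 in late VP16-CREB mice, 0.00 and -0.34 in early ones and -0.09 and -0.19 in A-CREB mice.

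Cell type markers moved with the transgene in the late VP16-CREB cohort. Of all probe sets 3.93% were called by limma there and 0.237% at 1 week. In late VP16-CREB mice 6 of 7 dentate granule neuron markers fell, among them Prox1 to 0.436 of the control level, and their summed intensity was 3827 to 5134, against 9205 to 9560 in control pools. Of 11 microglia and macrophage markers tested 10 rose, with sums of 50208 to 59322, against 12601 to 13206. Of 6 astrocyte markers 2 rose, Gfap and Aqp4, with sums of 53354 to 65597, against 38480 to 45783. In the same mice Nptx1 of the CA3 list fell and Slc32a1 of the interneuron list rose, and no CA1, oligodendrocyte, endothelial, choroid plexus or red blood cell marker was called. Sums of the CA1 markers were 6106 to 7481 in late VP16-CREB pools, against 9894 to 10256 in control pools. Of these markers 3 of 5 had an unadjusted p under 0.05, against 13.5% of all probe sets. CA3 sums were 8309 to 8603, against 11512 to 13242. The 6 general neuron markers were not called and summed to 55472 to 78310, against 66451 to 91290. At 1 week the dentate sums were 7621 to 7661 in VP16-CREB pools, against 9147 to 10039 in control pools, with 0 of 7 called, and the microglia sums 22672 to 25706, against 12064 to 16950, with Cd68 alone of that list called. Of the astrocyte markers Gfap was called higher at 1 week, with sums of 44734 to 55908 in VP16-CREB pools, against 39236 to 40069 in control pools, and the CA1 sums were 6581 to 6825, against 8281 to 10150. In A-CREB mice 0 markers were called, and the dentate sums were 7458 to 9752, against 7541 to 9693. The part of these shifts in the values of the 10 genes was not tested.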

How the data were processed

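The files hold linear intensity values that the authors had computed in MAS5, per the submitters' processing notes, and the mean after trimming 2% at each end was 500 on all arrays. The analysis set aside 64 control probe sets and used log2 of intensity plus 10. Probe sets above the median of all values (99.1) on 2 or more arrays stayed in, 27044 of 45037 (60.0%). All 16 arrays entered 1 limma fit with a mean per group (10 residual and 3.44 prior degrees of freedom, eBayes, two-sided, Benjamini-Hochberg adjustment). Array number limits the precision. Symbols were updated by Entrez ID, and 34945 probe sets had 1 symbol, 932 several and 9160 none. R 4.3.3, limma 3.58.1, data.table (version 1.17.8), Python 3.11.15 and matplotlib 3.10.9 were used, and the fit was tested on simulated data. The members, gene lists and tests were chosen with earlier results of these data known. Named genes of a list are up to 4 called ones of largest difference, or the 2 of highest mean where none was called. Fosb, Ier3, Csrnp1, Trib1 and the cell type markers were named after their values were seen. The labels give pools of separate mice but not of separate litters.

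Alternatives were no pseudocount, a pseudocount of 50, no filter or one on the mean, quantile normalization, median centring, only the arrays compared, a trend with robust variances, array weights, a replicate block, each pool left out, the A-CREB cohort without replicate 1, and the mean of all probe sets of a gene. Deviations of pools with the same number correlated at -0.23 to 0.41 over probe sets, so the numbers were not taken to pair the pools.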

Additional observations from a re-analysis of the deposited data

Results flagged for a closer look

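Among the other immediate early genes, 5 had a VP16-CREB effect at 3 weeks that differed from the A-CREB effect by the limma contrast at an adjusted p under 0.05. The difference of effects on the log2 scale was 3.86 for Atf3, 2.16 for Nfil3, 1.63 for Fosb, 1.59 for Csrnp1 and 1.12 for Ier3. None of the 10 genes described above did so.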

How the results depend on the processing

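No member was called under most alternatives in any of the 5 comparisons. The exceptions were in late VP16-CREB mice, where array weights gave 3 called members (Nr4a1 at -0.42, Nr4a2 at 0.36 and Npas4 at -0.75, with adjusted p of 0.0415, 0.0191 and 0.0483), where 15.3% of all probe sets were called, and the fit without VP16-CREB replicate 3 gave 1 (Egr3), so that the count without 1 pool ranged from 0 to 1. The cause was not tested. The numbers of the pools do not pair them by the check made, and with the replicate block no member was called. Depth does not apply to arrays, and 2 or 3 pools a group limit what can be seen: the median SE of a member was 0.20 on the log2 scale in the late VP16-CREB and A-CREB comparisons and 0.24 in the early VP16-CREB one.

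Members changed sign in some settings, and none of these was called; their reported values lay between -0.23 (Arc at 1 week) and 0.15 (Npas4 at 1 week). In late VP16-CREB mice Egr2 was -0.13 with array weights, -0.029 as the mean of its probe sets and -0.059 to 0.39 without 1 pool. In early VP16-CREB mice median centring gave -0.071 for Nr4a1 and -0.035 for Homer1. Without 1 pool, where the lone pool is assumed to vary like the other groups, the values there were -0.13 to 0.032 for Egr1, -0.27 to 0.34 for Nr4a1, -0.67 to 0.21 for Arc, -0.047 to 0.35 for Npas4 and -0.16 to 0.30 for Homer1. In A-CREB mice Nr4a2 was -0.0022 with quantile normalization, -0.019 with median centring, -0.059 with array weights and -0.11 as the mean of its probe sets. Array weights also gave -0.045 for Egr2 and -0.042 for Nr4a3, and the mean of probe sets -0.0495 for Egr2 and -0.31 for Egr3. Without replicate 1 of both groups, which differ in sex from most other pools, Homer1 was 0.24 and 2 probe sets of the whole array were called. Without 1 pool the A-CREB values were -0.23 to 0.0067 for Egr1, -0.42 to 0.36 for Egr2, -0.12 to 0.14 for Egr3, -0.041 to 0.091 for Nr4a2, -0.087 to 0.30 for Nr4a3, -0.24 to 0.18 for Npas4 and -0.25 to 0.089 for Homer1.

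The count of other immediate early genes called in late VP16-CREB mice was 8 to 12 without 1 pool, with 8 without VP16-CREB replicate 3 or control replicate 2 and 9 without control replicate 3, and at 1 week it was 1 with a pseudocount of 50. Over the whole array the late VP16-CREB comparison called 4137 probe sets with array weights and 584 to 854 without 1 pool, against 1062. The early one called 32 with no filter, 31 with array weights, 23 with the replicate block, 0 with only the arrays compared and 16 to 45 without 1 pool, against 64. In A-CREB mice 3 were called with no pseudocount, 2 with a pseudocount of 50 and 0 to 4 without 1 pool, against 0. For late minus early effects 2 were called with no pseudocount, 9 with a pseudocount of 50, 21 with quantile normalization, 3 with array weights, 9 with only the arrays compared, 0 with no filter, with a filter on the mean, with median centring and with the replicate block, and 0 to 5 without 1 pool, against 1. For late VP16-CREB minus A-CREB effects 138 were called with no filter, 404 with array weights, 144 with the replicate block and 114 to 218 without 1 pool, against 240.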
